A study of Mus musculus with 24 samples.

Results

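The genes described here are 50 genes of DNA replication and S phase, among the 54532 genes of an RNA sequencing table of HY19636 cells, a mouse pancreatic ductal adenocarcinoma (PDAC) line. They were chosen by name for their roles in origin licensing, the replicative helicase, the polymerases, chromatin assembly and the replication checkpoint. The choice was not made by a measured value, but earlier results of these data were known when it was made. Counts over these genes are therefore not those of a list chosen without sight of the data. All 50 genes were found in the table. The cells were Phgdh KO or Phgdh WT, where Phgdh encodes phosphoglycerate dehydrogenase, an enzyme that begins serine synthesis from a glycolytic intermediate. They were grown in serine/glycine-free medium (called deprived below) or with serine and glycine (called replete), and either together with hepatocytes (coculture) or alone (monoculture). The 8 groups of 3 libraries each were thus deprived and replete KO cocultures, deprived and replete KO monocultures, deprived and replete WT cocultures, and deprived and replete WT monocultures. The sources used here do not give the edited site, the number of KO clones, the source of the hepatocytes, the time in each medium or whether the cell types were separated before RNA extraction. Nothing in the labels says that the 3 libraries of a group came from separate cultures, so a p-value reflects how far these libraries vary, and that variation may be technical.

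Before S phase, the origin recognition complex, Cdc6 and Cdt1 load rings of Mcm2 to Mcm7 onto DNA at origins. Cyclin E with its kinase, and E2F transcription factors, then lead the cell into S phase, in which Cdc45, the GINS complex and Mcm10 switch the rings on as helicases, primase and the polymerases copy the strands on the Pcna clamp, and histone chaperones and maintenance methylation rebuild the chromatin. Many of these genes are transcribed as cells leave quiescence, and their summed mRNA is widely used as a sign of proliferation in tumours. Nucleotide synthesis, which replication depends on, uses carbon and nitrogen from serine and glycine.

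Levels are FPKM, fragments per kilobase of gene length scaled to library depth, and each change is a difference of log2(FPKM + 1) between group means with its standard error (SE). A gene was called higher or lower at an adjusted p under 0.05 (limma, Benjamini-Hochberg over the 12061 genes with at least 1 FPKM in at least 3 libraries). Of the 50 members, 49 passed that filter. Orc1, a subunit of the origin recognition complex, did not, and Clspn, Gins3 and Mcm10 passed only through the deprived KO monocultures, where they were high, so that counts over the 49 are biased towards that group. Adding 1 to each level makes the log2 change of a weakly expressed gene smaller than its change in FPKM.

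The libraries held 15740081 to 23479425 reads in genes. Phgdh transcript was present in every KO library, at 616, 732 and 737 FPKM in deprived KO monocultures, 372, 548 and 529 FPKM in replete KO monocultures, 817, 606 and 726 FPKM in deprived KO cocultures and 885, 869 and 868 FPKM in replete KO cocultures. In the same order of conditions it stood at 789, 818 and 794 FPKM in deprived WT monocultures, 934, 929 and 903 FPKM in replete WT monocultures, 1405, 1278 and 1249 FPKM in deprived WT cocultures and 1331, 1236 and 1333 FPKM in replete WT cocultures. KO libraries thus lay below the WT libraries of the same condition, and with the edited site not given the transcript does not by itself check the knockout. Of the ductal marker genes Krt18 was the highest, at a mean of 688 to 2542 FPKM per group, while 14 hepatocyte marker genes, albumin included, summed to 0 to 1.04 FPKM per library. Hnf4a, the other hepatocyte marker found in the table, averaged 38.0 FPKM in deprived KO cocultures and 14.8 FPKM in replete KO monocultures. Replicate 1 of the replete KO monocultures stood apart from replicates 2 and 3, with Pearson correlations over the tested genes of 0.967 and 0.970, against 0.993 between the other two. Replicates 1 and 2 of the deprived KO cocultures correlated at 0.973. The deprived KO monocultures also differed from all other libraries in the share of reads in their 10 highest genes, at 4.71% to 4.82% against 6.93% to 8.73%, and the part of this difference in the results was not tested.

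The deprived KO monocultures held the highest level of most replication genes in the series. For 40 of the 50 genes (80.0%), all 3 of these libraries lay above each of the other 21 libraries. The same was true of 2831 of the 12061 genes tested (23.5%). The 10 exceptions were Orc1, Gins2, Rfc5, Prim2, Pold1, Pold2, Pole2, Lig1, E2f1 and Ccne1. Averaged over the 50 genes, log2(FPKM + 1) was 3.41 in deprived KO monocultures and 2.14 in replete KO monocultures, 2.41 in deprived and 2.22 in replete KO cocultures, 2.49 in deprived and 2.24 in replete WT cocultures, and 2.13 in deprived and 2.22 in replete WT monocultures. In bulk RNA, more cells in S phase and more RNA of these genes per cell cannot be told apart.

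**Figure D1:**
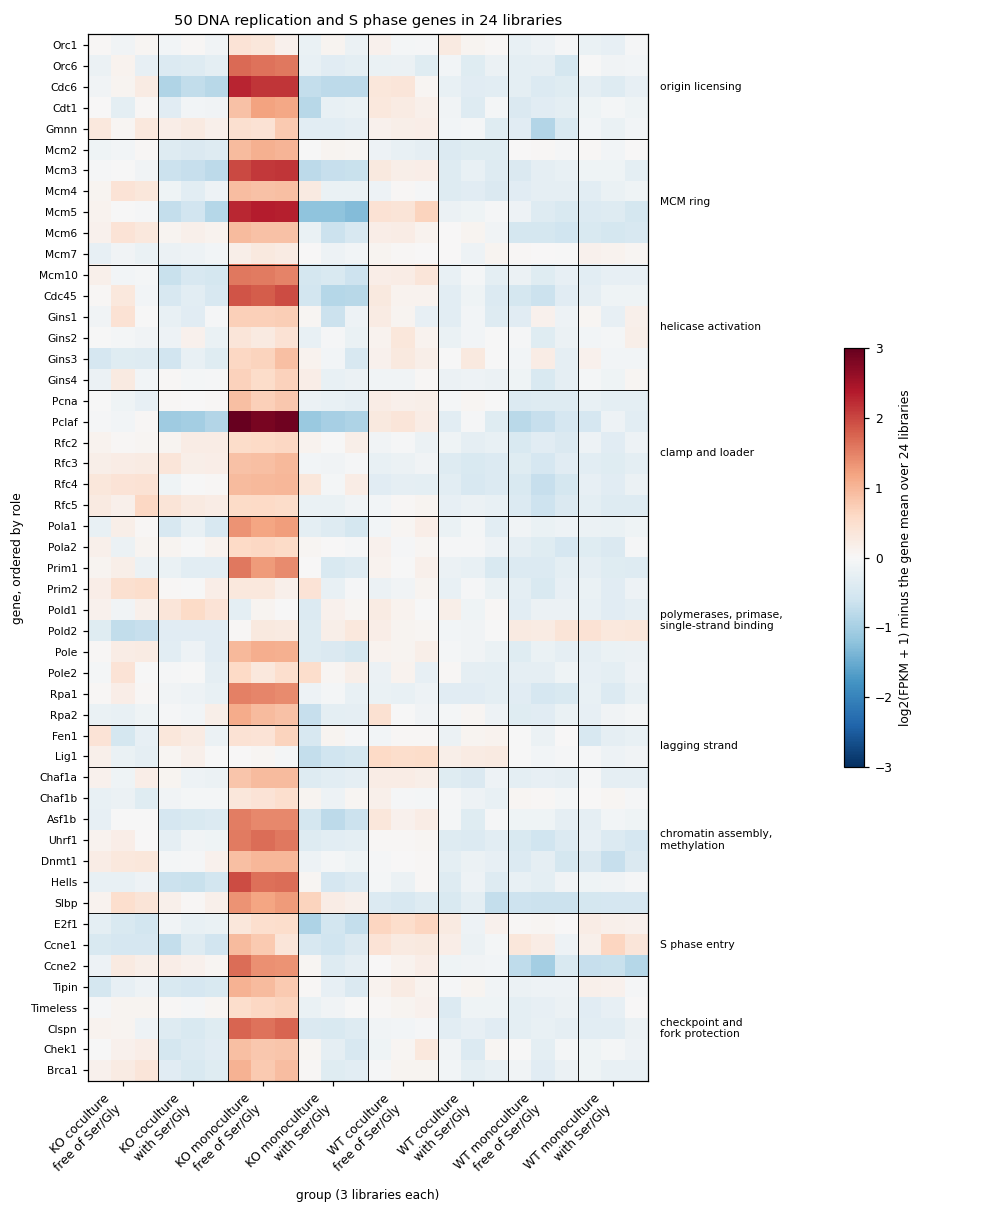
Level of each of the 50 genes (vertical axis, ordered by role) in each of the 24 libraries (horizontal axis, 8 groups of 3), as log2(FPKM + 1) minus that gene's mean over all libraries, on a colour scale of -3 to 3. The 3 deprived KO monocultures (labelled free of Ser/Gly) form the block of high values in most genes, and in 40 of 50 genes they lay above every other library.

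Withdrawal of serine and glycine raised replication genes of every role in KO monocultures. Of the 49 genes tested, 45 were called higher and 0 lower in deprived than in replete KO monocultures, with a median log2 change of 1.08, while 36.2% of all genes tested rose and 34.5% fell (70.8% called in all), with a median of 0.00. In 27 of the 49 the log2 change was at least 1, and the share of all genes with such a change was not determined. Without the filter 46 of all 50 genes were called higher, and with a filter that leaves out the deprived KO monocultures 42 of 46 were. The 36.2% and 34.5% belong to the filter that kept 12061 genes, and the shares under these other settings are not given. In WT monocultures the same withdrawal gave 0 calls of 49 by limma on FPKM and 0 by limma voom on reads, where 1.37% of all genes rose and 0.257% fell (1.63% called in all), and 9 of the 49 had an unadjusted p under 0.05, as did 1430 of the 12061 genes (11.9%). Its member median was -0.08, against -0.01 for all genes. The difference between the genotypes was tested as an interaction, which was called for 44 genes, all with the larger change in KO, where 31.4% of all genes were called in that direction and 61.2% in either. Leaving out any single library left 45 to 47 calls in KO monocultures. In WT monocultures it left 0, or 1 without replete KO monoculture replicate 1 or 2, deprived KO coculture replicate 2 or deprived WT monoculture replicate 1.

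The genes that license origins rose together. All 4 tested genes of this role were called higher in deprived than in replete KO monocultures, with a median log2 change of 1.71 and a range of 0.86 for Gmnn to 2.95 for Cdc6. Cdc6, which loads the MCM ring onto DNA and whose protein is degraded in G1, had 9.16, 8.14 and 8.12 FPKM in deprived KO monocultures, against 0.269, 0.205 and 0.198 FPKM in replete KO monocultures, a log2 change of 2.95 ± 0.09 and a 37.8-fold ratio of the mean FPKM. The 2 sets of libraries did not overlap, and Cdc6 reached at most 1.68 FPKM in the 21 other libraries. Its levels in replete KO monocultures are under 1 FPKM and rest on few reads, which limits the precision of the ratio. Cdc6 had 0.701, 0.562 and 0.608 FPKM in deprived WT monocultures, against 0.716, 0.59 and 0.747 FPKM in replete WT monocultures. In coculture it had 0.914, 1.199 and 1.44 FPKM in deprived KO cocultures, against 0.105, 0.238 and 0.16 FPKM in replete KO cocultures, where it rose by 0.90 ± 0.09. In WT cocultures it had 1.62, 1.68 and 1.17 FPKM in deprived WT cocultures, against 0.784, 0.632 and 0.66 FPKM in replete WT cocultures, where it rose by 0.55 ± 0.09. The deprived and replete libraries of Cdc6 were thus separate in both cocultures as well, far below the deprived KO monocultures, and they overlapped in WT monocultures. Cdt1, the partner of Cdc6 in loading, had 25.9, 32.6 and 31.8 FPKM in deprived KO monocultures, against 7.20, 11.5 and 11.8 FPKM in replete KO monocultures, a log2 change of 1.4996 ± 0.14. The lowest of the replete KO libraries was replicate 1, the library that stood apart. Cdt1 had 9.88, 10.6 and 10.96 FPKM in deprived WT monocultures, against 12.4, 13.1 and 12.5 FPKM in replete WT monocultures, 13.9, 11.02 and 14.03 FPKM in deprived KO cocultures, against 10.6, 12.9 and 12.6 FPKM in replete KO cocultures, and 17.3, 16.4 and 15.4 FPKM in deprived WT cocultures, against 12.5, 10.3 and 13.1 FPKM in replete WT cocultures. None of these 3 pairs was called, although the deprived WT cocultures lay above the replete WT cocultures and the deprived WT monocultures below the replete WT monocultures. Gmnn encodes geminin, which holds Cdt1 inactive after origins have fired, and it had 8.08, 7.80 and 10.3 FPKM in deprived KO monocultures, against 4.26, 4.24 and 4.46 FPKM in replete KO monocultures, a log2 change of 0.86 ± 0.12. It had 4.20, 2.55 and 3.75 FPKM in deprived WT monocultures, against 5.19, 4.69 and 5.15 FPKM in replete WT monocultures, 7.11, 5.79 and 7.17 FPKM in deprived KO cocultures, against 6.47, 6.90 and 6.23 FPKM in replete KO cocultures, and 6.18, 6.34 and 6.55 FPKM in deprived WT cocultures, against 5.21, 5.24 and 4.10 FPKM in replete WT cocultures, again without a call. Orc1 was low throughout, at 0.311 to 1.08 FPKM, and had 1.08, 0.985 and 0.721 FPKM in deprived KO monocultures, against 0.352, 0.662 and 0.389 FPKM in replete KO monocultures, where the libraries did not overlap.

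The MCM ring is the replicative helicase, built from 1 copy each of Mcm2 to Mcm7, and all 6 of its genes were called higher in deprived than in replete KO monocultures, with a median log2 change of 1.16. They did not rise alike. Mcm5 had 20.1, 21.4 and 20.9 FPKM in deprived KO monocultures, against 0.89, 0.896 and 0.768 FPKM in replete KO monocultures, a log2 change of 3.56 ± 0.09 and a 24.4-fold ratio of the mean FPKM. Mcm3 had 42.7, 47.0 and 48.0 FPKM in deprived KO monocultures, against 5.37, 5.81 and 5.89 FPKM in replete KO monocultures, a log2 change of 2.81 ± 0.07 and an 8.06-fold ratio. Mcm2 had 37.1, 40.2 and 38.8 FPKM in deprived KO monocultures, against 18.5, 19.9 and 19.5 FPKM in replete KO monocultures, a log2 change of 0.97 ± 0.05 and a 2.01-fold ratio. In each of these the deprived libraries lay far above the replete ones, and the spread within a group was small beside the difference. Mcm4 had 37.2, 35.8 and 36.9 FPKM in deprived KO monocultures, against 23.1, 16.7 and 16.6 FPKM in replete KO monocultures, a log2 change of 0.94 ± 0.10. Mcm6 had 30.6, 29.3 and 29.3 FPKM in deprived KO monocultures, against 13.2, 9.48 and 10.8 FPKM in replete KO monocultures, a log2 change of 1.35 ± 0.09. Mcm7 had 30.5, 33.1 and 31.8 FPKM in deprived KO monocultures, against 27.0, 23.8 and 25.1 FPKM in replete KO monocultures, a log2 change of 0.32 ± 0.06. For Mcm4 and Mcm6 the highest replete library was replicate 1, and for Mcm7, the smallest of the 6 changes, the deprived and replete libraries came closest.

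Mcm5 was the scarcest ring gene in every library, and Mcm7 was the most abundant in all but the deprived KO monocultures and replicates 2 and 3 of the deprived KO cocultures. The level of the most abundant over that of the scarcest ring gene was 2.20 ± 0.0843 in deprived KO monocultures and 29.9 ± 3.13 in replete KO monocultures (SD, n = 3 each). It was 7.10 ± 0.905 in deprived and 14.8 ± 2.76 in replete KO cocultures, 5.36 ± 0.711 in deprived and 8.67 ± 0.666 in replete WT cocultures, and 10.9 ± 1.44 in deprived and 12.96 ± 0.72 in replete WT monocultures. The ring genes were therefore closest to equal levels per length in the deprived KO monocultures and farthest apart in the replete KO monocultures, and the ranges of these 2 groups did not overlap. Their summed level was 204 ± 4.74 FPKM in deprived KO monocultures and 81.1 ± 6.16 FPKM in replete KO monocultures. Mcm5 had 2.94, 2.37 and 2.21 FPKM in deprived WT monocultures, against 2.31, 2.33 and 2.02 FPKM in replete WT monocultures, 3.69, 3.34 and 3.27 FPKM in deprived KO cocultures, against 1.67, 1.94 and 1.42 FPKM in replete KO cocultures, and 4.94, 4.71 and 5.93 FPKM in deprived WT cocultures, against 2.87, 2.99 and 3.29 FPKM in replete WT cocultures. It was called higher on withdrawal in KO cocultures (0.73 ± 0.09) and in WT cocultures (0.61 ± 0.09), where deprived and replete libraries were separate. Mcm3 had 7.10, 8.15 and 8.50 FPKM in deprived WT monocultures, against 9.04, 9.001 and 7.96 FPKM in replete WT monocultures, 9.70, 9.91 and 9.29 FPKM in deprived KO cocultures, against 6.09, 5.86 and 5.36 FPKM in replete KO cocultures, and 12.5, 11.4 and 11.6 FPKM in deprived WT cocultures, against 7.42, 8.42 and 7.47 FPKM in replete WT cocultures. It too was called higher in KO cocultures (0.65 ± 0.07) and WT cocultures (0.55 ± 0.07). Mcm2 had 18.8, 19.1 and 18.2 FPKM in deprived WT monocultures, against 19.1, 17.4 and 18.9 FPKM in replete WT monocultures, 17.01, 17.7 and 19.2 FPKM in deprived KO cocultures, against 13.95, 13.5 and 14.1 FPKM in replete KO cocultures, and 16.7, 15.99 and 15.3 FPKM in deprived WT cocultures, against 13.9, 14.4 and 14.3 FPKM in replete WT cocultures. Mcm4 had 14.8, 15.8 and 15.8 FPKM in deprived WT monocultures, against 15.2, 16.5 and 17.5 FPKM in replete WT monocultures, 20.5, 25.8 and 24.6 FPKM in deprived KO cocultures, against 17.6, 15.3 and 17.2 FPKM in replete KO cocultures, and 17.03, 19.6 and 18.5 FPKM in deprived WT cocultures, against 14.3, 14.9 and 13.8 FPKM in replete WT cocultures. Mcm2 (0.35 ± 0.05) and Mcm4 (0.47 ± 0.10) were called higher on withdrawal in KO cocultures and not in the WT cultures. In WT cocultures the deprived libraries of both genes also lay above the replete ones. The difference between KO and WT cocultures was not called for either gene by the limma interaction test (adjusted p of 0.082 for Mcm2 and 0.519 for Mcm4). Mcm6 had 10.4, 10.4 and 9.82 FPKM in deprived WT monocultures, against 10.99, 10.3 and 10.7 FPKM in replete WT monocultures, 16.9, 20.8 and 19.5 FPKM in deprived KO cocultures, against 16.2, 17.1 and 16.7 FPKM in replete KO cocultures, and 17.8, 18.0 and 16.6 FPKM in deprived WT cocultures, against 15.4, 16.4 and 14.2 FPKM in replete WT cocultures. Mcm7 had 27.3, 27.0 and 26.5 FPKM in deprived WT monocultures, against 29.3, 28.9 and 27.9 FPKM in replete WT monocultures, 22.4, 24.8 and 23.1 FPKM in deprived KO cocultures, against 23.7, 23.9 and 25.3 FPKM in replete KO cocultures, and 28.3, 27.5 and 26.9 FPKM in deprived WT cocultures, against 26.9, 24.04 and 28.3 FPKM in replete WT cocultures. Neither Mcm6 nor Mcm7 was called on withdrawal outside the KO monocultures, and for Mcm6 the cocultures of both genotypes and media lay above all the monocultures other than the deprived KO ones.

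**Figure D2:**
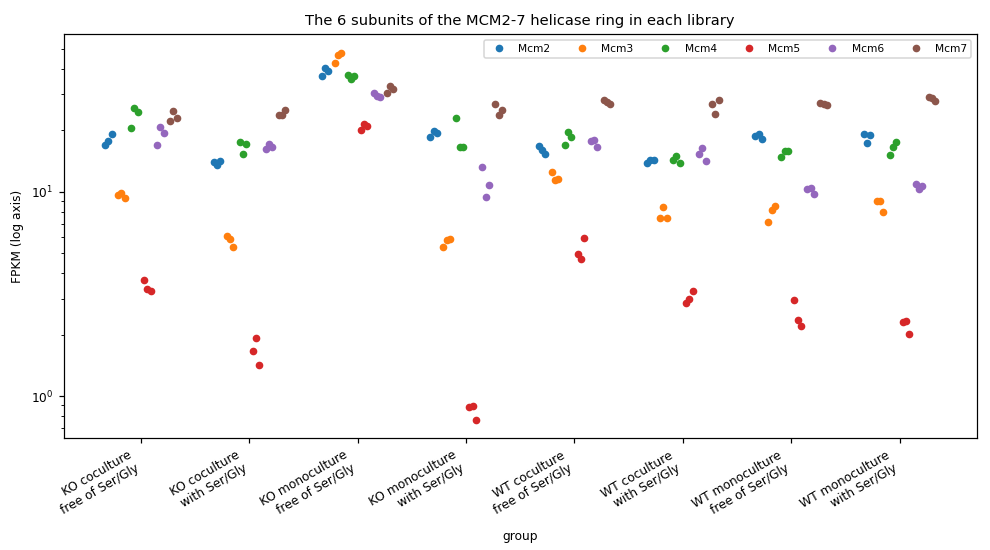
Level of the 6 MCM ring genes in every library (vertical axis, FPKM on a log axis; horizontal axis, the 8 groups), 1 point per library and 1 colour per gene. The ratio of the highest to the lowest of the 6 genes within a library is 2.13 to 2.29 in the 3 deprived KO monocultures and 26.5 to 32.7 in the 3 replete KO monocultures, with Mcm5 the lowest in both.

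The promoters of members were searched for motifs after the expression results were known, and the windows of 4 genes are shown because 3 of them are ring genes that rose by different amounts. The windows are the 250 bases before each start in RefSeq (GRCm38.p6), read on both strands, and 40 of the 50 genes had an entry. The E2F-type letters searched were TTTCCCGC, TTTGGCGC, TTTCGCGC and TTTGCCGC, of which neighbouring matches on opposite strands can overlap. They were found in 11 of the 40 members (27.5%), Cdc6, Dnmt1, Gins3, Hells, Mcm5, Mcm6, Mcm7, Orc1, Pola1, Rfc3 and Uhrf1. They were found in 4.21% of 8459 tested genes with an entry, in 2.16% of all 27025 genes with an entry, in 7.14% of mitosis genes, and in 15.8% of the other replication genes (6 of 38 with an entry). TTTGAA, a core of cell cycle homology regions, was found in 17.5% of members, 46.4% of mitosis genes and 12.1% of tested genes. CCAAT was found in 62.5% of members, 82.1% of mitosis genes and 41.2% of tested genes, and GGGCGG in 62.5%, 71.4% and 66.5%. A match is a description of the letters and not a binding site. The 10 tested members with an E2F-type match had a median log2 change of 1.51 in deprived against replete KO monocultures, and the 29 without a match 1.14. Shown are 3 windows with matches and that of Mcm3, which rose by 2.81 without a match, each 5′ to 3′ on the gene's strand with E2F-type matches in capitals. They lie at chr8:75109259-75109508 (plus strand) for Mcm5, chr1:128359706-128359955 (minus) for Mcm6, chrX:93632156-93632405 (minus) for Pola1, the catalytic subunit of polymerase alpha, and chr1:20820313-20820562 (minus) for Mcm3.
Mcm5: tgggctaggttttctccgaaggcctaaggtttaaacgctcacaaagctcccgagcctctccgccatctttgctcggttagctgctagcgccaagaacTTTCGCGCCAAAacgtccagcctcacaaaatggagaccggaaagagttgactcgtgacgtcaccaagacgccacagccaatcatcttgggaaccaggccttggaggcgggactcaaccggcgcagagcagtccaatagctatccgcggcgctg
Mcm6: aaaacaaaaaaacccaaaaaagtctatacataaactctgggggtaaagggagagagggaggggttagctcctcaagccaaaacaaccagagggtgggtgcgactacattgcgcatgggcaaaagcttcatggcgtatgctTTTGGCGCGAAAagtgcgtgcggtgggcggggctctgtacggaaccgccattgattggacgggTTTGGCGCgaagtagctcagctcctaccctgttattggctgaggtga
Pola1: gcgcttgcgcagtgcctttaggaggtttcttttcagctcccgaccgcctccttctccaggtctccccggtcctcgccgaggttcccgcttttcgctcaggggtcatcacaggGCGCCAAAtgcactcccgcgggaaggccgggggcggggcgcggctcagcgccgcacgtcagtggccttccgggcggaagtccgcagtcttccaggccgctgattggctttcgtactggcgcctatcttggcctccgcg
Mcm3: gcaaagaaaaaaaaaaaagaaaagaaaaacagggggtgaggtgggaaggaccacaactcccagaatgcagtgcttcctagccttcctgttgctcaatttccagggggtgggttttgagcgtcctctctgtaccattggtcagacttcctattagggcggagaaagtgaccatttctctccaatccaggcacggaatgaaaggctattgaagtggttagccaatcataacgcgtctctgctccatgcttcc
RefSeq places the start of Mcm5 60 bases before that of the annotation used for the table. Its window holds 2 overlapping matches, which begin 153 and 149 bases before the start. Mcm6 has 3 matches, the first 2 of them overlapping, at 110, 106 and 47 bases before the start. Pola1 has 1, at 138 bases. Mcm5 and Mcm6, with 3.56 and 1.35, and Mcm3, with 2.81, all rose on withdrawal in KO monocultures.

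Cdc45 and the GINS complex join the ring to form the active helicase, and Mcm10 helps that step. All 6 genes of this role were called higher in deprived than in replete KO monocultures, with a median log2 change of 0.92 and a range of 0.52 for Gins2 to 2.64 for Cdc45. Cdc45 had 10.6, 10.04 and 11.1 FPKM in deprived KO monocultures, against 1.12, 0.727 and 0.758 FPKM in replete KO monocultures, a log2 change of 2.64 ± 0.11 and a 12.2-fold ratio of the mean FPKM. The deprived libraries lay well apart from the replete ones. The 4 GINS genes summed to 48.6 ± 2.57 FPKM in deprived KO monocultures and 28.1 ± 4.85 FPKM in replete KO monocultures (SD, n = 3 each), with Gins4 the highest and Gins3 the lowest in both. Cdc45 had 1.17, 0.99 and 1.48 FPKM in deprived WT monocultures, against 1.58, 1.85 and 1.88 FPKM in replete WT monocultures, 2.18, 2.88 and 1.94 FPKM in deprived KO cocultures, against 1.22, 1.495 and 1.22 FPKM in replete KO cocultures, and 2.83, 2.36 and 2.34 FPKM in deprived WT cocultures, against 1.53, 1.87 and 1.34 FPKM in replete WT cocultures. It was called higher on withdrawal in KO cocultures (0.52 ± 0.11), and in WT cocultures the libraries did not overlap but no call was made. Mcm10, chosen after its values were seen because it is a member that passed the filter only through 1 group, had 4.17, 4.15 and 3.87 FPKM in deprived KO monocultures, against 0.215, 0.278 and 0.135 FPKM in replete KO monocultures. Gins3, chosen for the same reason, had 1.58, 1.65 and 2.13 FPKM in deprived KO monocultures, against 0.814, 0.577 and 0.2 FPKM in replete KO monocultures, and both sets of libraries were separate.

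Pcna is the clamp that holds polymerases on DNA, the Rfc2 to Rfc5 subunits belong to the complex that loads it, and Pclaf is a small PCNA-binding protein. All 6 genes were called higher in deprived than in replete KO monocultures, with a median log2 change of 0.90 and a range of 0.51 for Rfc2 to 3.97 for Pclaf. Pclaf showed the largest change of all members, with 20.5, 16.9 and 17.8 FPKM in deprived KO monocultures, against 0.153, 0.239 and 0.309 FPKM in replete KO monocultures, a log2 change of 3.97 ± 0.11 and a 78.7-fold ratio of the mean FPKM. Every other library of the series was at 2.16 FPKM or below. The replete KO monoculture levels are under 1 FPKM and rest on few reads, which limits the precision of the ratio. Pclaf lies within the span of Trip4 on the other strand, which averaged 3.02 FPKM over the libraries and reached at most 5.40 FPKM. The sources used here do not say whether counting used strand, so that reads from the 2 genes cannot be told apart where they overlap. Pclaf had 0.415, 0.532 and 0.746 FPKM in deprived WT monocultures, against 0.754, 1.23 and 0.979 FPKM in replete WT monocultures, 1.42, 1.33 and 1.56 FPKM in deprived KO cocultures, against 0.19, 0.225 and 0.347 FPKM in replete KO cocultures, and 2.03, 2.16 and 1.89 FPKM in deprived WT cocultures, against 1.01, 1.41 and 0.923 FPKM in replete WT cocultures. It was called higher on withdrawal in KO cocultures (0.96 ± 0.11) and in WT cocultures (0.53 ± 0.11), in which deprived and replete libraries did not overlap. Pcna, the most abundant member, had 108, 95.7 and 102 FPKM in deprived KO monocultures, against 51.0, 49.8 and 47.6 FPKM in replete KO monocultures, a log2 change of 1.03 ± 0.05 and a 2.06-fold ratio. Pcna had 43.6, 43.7 and 43.9 FPKM in deprived WT monocultures, against 49.6, 47.2 and 47.1 FPKM in replete WT monocultures, 57.1, 52.9 and 48.8 FPKM in deprived KO cocultures, against 59.4, 58.2 and 59.6 FPKM in replete KO cocultures, and 67.6, 64.7 and 65.0 FPKM in deprived WT cocultures, against 56.0, 60.0 and 57.3 FPKM in replete WT cocultures. In KO cocultures it was called lower on withdrawal by a small margin (-0.16 ± 0.05), a call that was lost without deprived KO coculture replicate 2 or 3 or any replete KO coculture, at -0.10 with an adjusted p of 0.18 in the case of deprived replicate 3. The table also lists Pcna-ps2, a copy of Pcna, at a mean of 0.676 FPKM, and the sources used here do not say how reads that map to both were counted.

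Of the 10 genes for the polymerases, primase and single-strand binding, 6 were called higher in deprived than in replete KO monocultures, with a median log2 change of 0.98 over the role. The largest was Prim1, the catalytic subunit of primase, at 1.70. The 4 members not called in that comparison were all of this role. Pold1, the catalytic subunit of polymerase delta, had 6.05, 8.24 and 7.70 FPKM in deprived KO monocultures, against 5.58, 8.58 and 8.01 FPKM in replete KO monocultures, with an adjusted p of 0.998. Pold2, its second subunit, had 21.2, 25.6 and 25.2 FPKM in deprived KO monocultures, against 15.5, 23.2 and 26.1 FPKM in replete KO monocultures, a log2 change of 0.17 ± 0.13 with an adjusted p of 0.245. Prim2, the large subunit of primase, had 5.14, 5.13 and 4.49 FPKM in deprived KO monocultures, against 5.53, 3.23 and 3.78 FPKM in replete KO monocultures, a log2 change of 0.21 ± 0.13 with an adjusted p of 0.135. In these genes deprived and replete libraries overlapped, and replicate 1 of the replete KO monocultures was the lowest of its group for Pold1 and Pold2 and the highest for Prim2. Pole2, the second subunit of polymerase epsilon, had 2.55, 1.93 and 2.35 FPKM in deprived KO monocultures, against 2.40, 1.44 and 1.67 FPKM in replete KO monocultures, a log2 change of 0.22 ± 0.14 with an adjusted p of 0.177. Its replicate 1 of the replete group was again the highest, and it overlapped the deprived group. Without that library 47 members were called in this comparison. The direction of Pold2 then turned, at -0.04.

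Fen1 and Lig1, which trim and join the fragments of the lagging strand, were both called higher in deprived than in replete KO monocultures, with log2 changes of 0.65 ± 0.19 and 0.61 ± 0.08. All 7 genes of chromatin assembly and DNA methylation were called higher, with a median of 1.24 and a range of 0.41 for Chaf1b, a subunit of chromatin assembly factor 1, to 2.12 for Asf1b, a histone chaperone. The role includes Uhrf1 and Dnmt1, which copy methylation to the new strand, Hells, a chromatin remodeller, and Slbp, which binds the stem loop of replication-dependent histone mRNAs. Slbp had 18.9, 16.9 and 17.9 FPKM in deprived KO monocultures, against 11.5, 8.07 and 7.74 FPKM in replete KO monocultures, a log2 change of 0.92 ± 0.12, and the libraries did not overlap.

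E2f1, a transcription factor that activates S phase genes, and the cyclin E genes Ccne1 and Ccne2 were all called higher in deprived than in replete KO monocultures. E2f1 had 9.74, 10.9 and 11.2 FPKM in deprived KO monocultures, against 3.42, 4.79 and 4.13 FPKM in replete KO monocultures, a log2 change of 1.19 ± 0.10. Ccne1 had 2.82, 2.40 and 1.55 FPKM in deprived KO monocultures, against 0.414, 0.309 and 0.474 FPKM in replete KO monocultures, a log2 change of 1.201 ± 0.15. Ccne2 had 9.33, 7.42 and 7.25 FPKM in deprived KO monocultures, against 2.42, 1.49 and 1.70 FPKM in replete KO monocultures, a log2 change of 1.65 ± 0.14. In all 3 genes the libraries were separate, but E2f1 and Ccne1 differed from most members in that the deprived KO monocultures did not exceed every WT library. E2f1 had 7.61, 7.84 and 7.51 FPKM in deprived WT monocultures, against 8.77, 8.39 and 8.18 FPKM in replete WT monocultures, 5.90, 5.13 and 4.71 FPKM in deprived KO cocultures, against 6.80, 6.22 and 6.35 FPKM in replete KO cocultures, and 12.2, 11.1 and 12.1 FPKM in deprived WT cocultures, against 9.12, 6.64 and 8.19 FPKM in replete WT cocultures. Its highest group was the deprived WT cocultures, where it was called higher on withdrawal (0.52 ± 0.10). That call was lost without deprived WT coculture replicate 1 or 3 or replete WT coculture replicate 2, at 0.41 with an adjusted p of 0.083 in the case of the replete library. In KO cocultures the change was -0.26 ± 0.10 with an adjusted p of 0.0513. Ccne1 had 1.52, 1.32 and 0.79 FPKM in deprived WT monocultures, against 1.196, 2.11 and 1.53 FPKM in replete WT monocultures, 0.454, 0.393 and 0.399 FPKM in deprived KO cocultures, against 0.207, 0.528 and 0.335 FPKM in replete KO cocultures, and 1.65, 1.40 and 1.43 FPKM in deprived WT cocultures, against 1.26, 0.761 and 0.903 FPKM in replete WT cocultures. Ccne2 had 0.926, 0.596 and 1.38 FPKM in deprived WT monocultures, against 1.01, 1.04 and 0.797 FPKM in replete WT monocultures, 1.93, 2.94 and 2.68 FPKM in deprived KO cocultures, against 2.73, 2.58 and 2.40 FPKM in replete KO cocultures, and 2.27, 2.49 and 2.76 FPKM in deprived WT cocultures, against 1.99, 2.03 and 2.08 FPKM in replete WT cocultures. Neither cyclin E gene was called on withdrawal outside the KO monocultures. Ccne2 overlaps Ints8 on the other strand, so reads of the 2 genes cannot be told apart here.

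The 5 genes of the checkpoint and of fork protection were all called higher in deprived than in replete KO monocultures, with a median log2 change of 1.14 and a range of 0.71 for Timeless to 2.13 for Clspn. Clspn passed the filter only through the deprived KO monocultures, so its call and its place in this range are not independent of the filter. Chek1, the kinase that slows origin firing when forks stall, had 3.03, 2.81 and 2.88 FPKM in deprived KO monocultures, against 1.26, 0.799 and 0.545 FPKM in replete KO monocultures, a log2 change of 1.08 ± 0.14. The replete libraries differed among themselves, with replicate 1 the highest, and did not reach the deprived ones. Chek1 had 1.15, 0.783 and 1.07 FPKM in deprived WT monocultures, against 0.976, 1.09 and 0.959 FPKM in replete WT monocultures, 1.14, 1.35 and 1.49 FPKM in deprived KO cocultures, against 0.501, 0.63 and 0.708 FPKM in replete KO cocultures, and 0.993, 1.28 and 1.72 FPKM in deprived WT cocultures, against 1.02, 0.644 and 1.27 FPKM in replete WT cocultures. It was called higher on withdrawal in KO cocultures (0.53 ± 0.14). Clspn encodes claspin, the adaptor through which the checkpoint reaches Chek1, and was chosen after its values were seen. It had 3.72, 3.38 and 3.70 FPKM in deprived KO monocultures, against 0.0426, 0.0286 and 0.0753 FPKM in replete KO monocultures. The replete values rest on 5, 5 and 12 reads, so no ratio is given. Over the 15 genes given in every library in these paragraphs, the adjusted p for deprived against replete KO monocultures was 2.42e-17 to 6.05e-05, the largest being that of Mcm7.

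**Figure D3:**
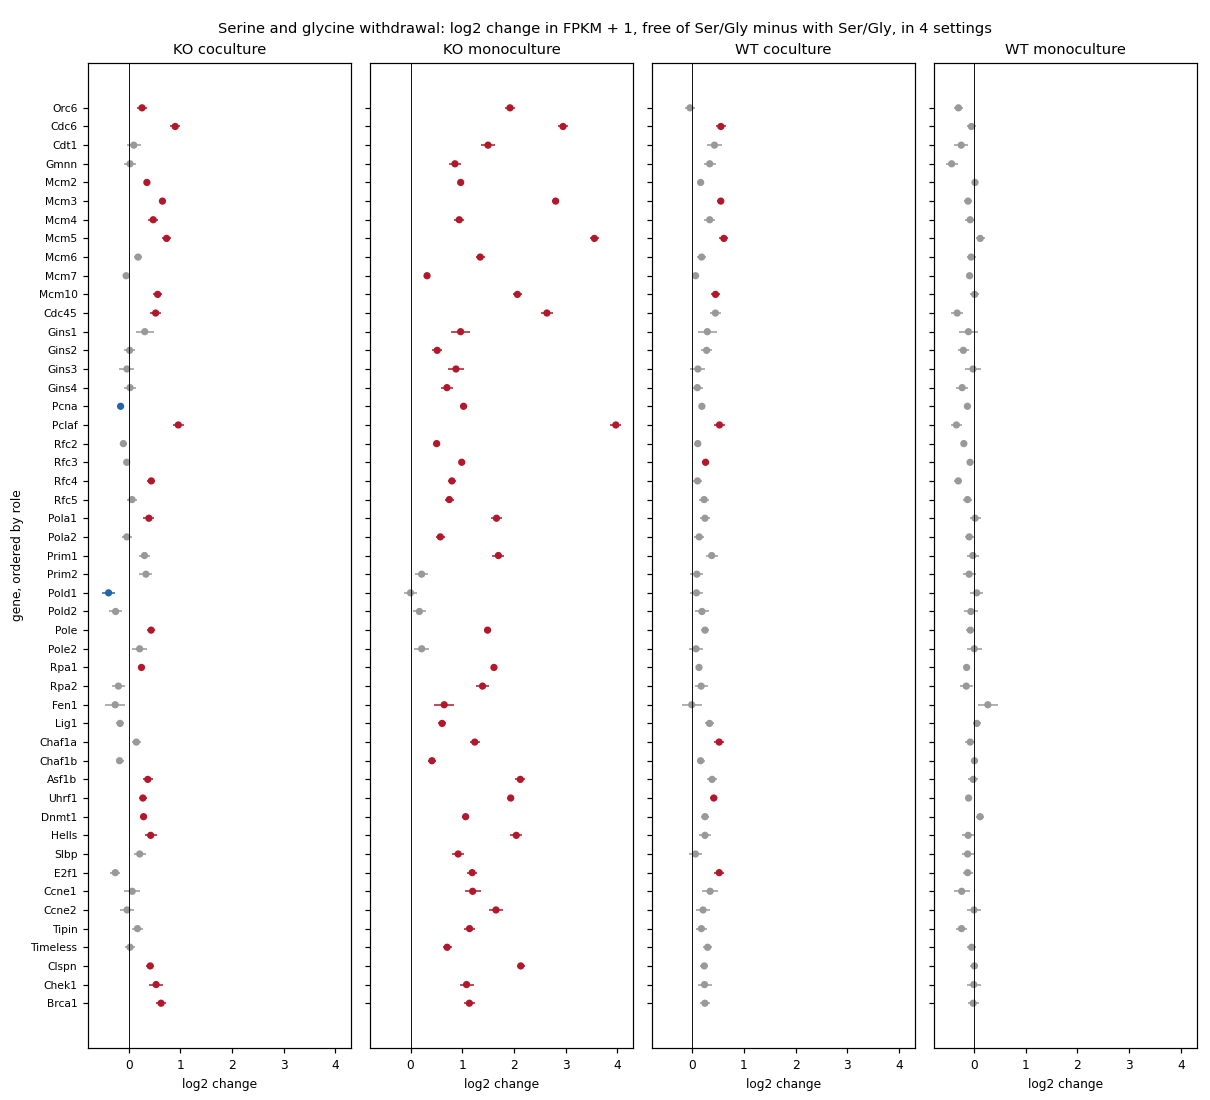
Change on withdrawal of serine and glycine for the 49 tested genes (vertical axis, ordered by role) in KO cocultures, KO monocultures, WT cocultures and WT monocultures (4 panels), as the log2 difference in FPKM + 1, deprived minus replete (horizontal axis). Points are changes and bars their SE; red marks genes called higher, blue called lower and grey not called. Of 49 genes, 22 were called in KO cocultures, 45 in KO monocultures, 9 in WT cocultures and 0 in WT monocultures.

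In KO cocultures the response to withdrawal was smaller than in KO monocultures, and fewer of the genes were called. In KO cocultures 20 of 49 genes were called higher and 2 lower, where 15.5% of all genes rose and 14.4% fell (29.9% called in all), and the member median was 0.21 against -0.001 for all genes. The 20 included 4 of the 6 ring genes (Mcm2 to Mcm5), both Cdc6 and Cdc45, and 4 of the 7 chromatin genes. The largest rises were those of Pclaf (0.96), Cdc6 (0.90) and Mcm5 (0.73). The 2 genes called lower were Pcna and Pold1. The adjusted p of these 5 genes was 1.05e-06 to 0.0315. Pold1 had 8.49, 7.07 and 8.67 FPKM in deprived KO cocultures, against 10.1, 11.96 and 10.6 FPKM in replete KO cocultures, a log2 change of -0.39 ± 0.13, and these libraries did not overlap. That call was lost without deprived KO coculture replicate 2, at -0.31 with an adjusted p of 0.13, and without replete KO coculture replicate 2 or 3. The count was 17 higher and 0 lower without deprived KO coculture replicate 2, 24 higher and 6 lower without its replicate 1, and 23 higher and 4 lower without replete KO monoculture replicate 1. The number lower was also 0 without replete KO coculture replicate 2 or 3, and 1 without replete KO coculture replicate 1 or deprived KO coculture replicate 3. All 20 genes called higher here were also called higher on withdrawal in KO monocultures, a share that was not determined for all genes. The change on withdrawal was lower in KO cocultures than in KO monocultures for 45 genes by the interaction test. In that direction 29.8% of all genes were called, and 57.7% in either. Tested as a difference between genotypes, that culture effect was more negative in KO for 45 genes. Of all genes 23.6% were called in that direction and 46.5% in either.

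In WT cocultures 9 of 49 genes were called higher on withdrawal and 0 lower, where 0.439% of all genes rose and 0.298% fell (0.738% called in all). They were Cdc6, Mcm3, Mcm5, Mcm10, Pclaf, Rfc3, Chaf1a, Uhrf1 and E2f1. Mcm5 (adjusted p = 0.00146), Cdc6 (0.00514) and Mcm3 (0.000556) had the largest changes. The member median was 0.24, against 0.00 for all genes, and 29 of the 49 had an unadjusted p under 0.05, as did 1143 of the 12061 genes (9.48%). The calls rest on the spread shared over all 24 libraries. In a fit of only these 6 libraries 0 of the 49 genes and 4 of all genes were called, although 32 of the 49 and 1763 of the 12061 genes (14.6%) had an unadjusted p under 0.05. The count was 14 without replete KO monoculture replicate 1, and 5 without replete WT coculture replicate 1. The 6 genes called higher on withdrawal in both cocultures were Cdc6, Mcm3, Mcm5, Mcm10, Pclaf and Uhrf1. The share of all genes called higher in both was not determined. The test of the difference between KO and WT cocultures gave 5 genes, Pcna, Rfc3, Lig1, Chaf1b and E2f1, all with the lower change in KO, where 6.38% of all genes were called in that direction and 14.4% in either, a share above that of the members. The split was 1 higher and 6 lower under quantile normalization, 2 higher and 6 lower by limma voom on reads, and 1 higher and 5 lower under median ratio scaling. It gave 4 higher and 8 lower without replete KO monoculture replicate 1, 4 higher and 7 lower without deprived KO coculture replicate 1, and 3 lower without replete KO coculture replicate 1 or replete WT coculture replicate 2. Between WT cocultures and WT monocultures, 0.423% of all genes were called with a more positive change on withdrawal in coculture. In either direction 1.67% were called. Among the members 11 had the more positive change, to which a fall in monoculture can also contribute. This number was 4 without replete WT monoculture replicate 1 or deprived WT coculture replicate 1, 5 without deprived WT monoculture replicate 3, 6 without replete WT monoculture replicate 3 or replete WT coculture replicate 2, and 7 without deprived WT coculture replicate 2 or replete WT coculture replicate 1 or 3.

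Coculture with hepatocytes went with lower replication gene levels in deprived KO cells and higher ones in deprived WT cells. In deprived KO cells 0 of 49 members were higher and 46 lower in cocultures than in monocultures, where 35.0% of all genes rose and 36.3% fell (71.3% called in all), and the member median was -0.88 against -0.01 for all genes. This comparison shares the deprived KO monocultures with the withdrawal comparison, so that the 44 genes higher in one and lower in the other are not separate evidence. Pclaf had 1.42, 1.33 and 1.56 FPKM in deprived KO cocultures, against 20.5, 16.9 and 17.8 FPKM in deprived KO monocultures, a log2 change of -2.99 ± 0.11. Mcm5 had 3.69, 3.34 and 3.27 FPKM in deprived KO cocultures, against 20.1, 21.4 and 20.9 FPKM in deprived KO monocultures, a log2 change of -2.30 ± 0.09. Mcm3 had 9.70, 9.91 and 9.29 FPKM in deprived KO cocultures, against 42.7, 47.0 and 48.0 FPKM in deprived KO monocultures, a log2 change of -2.14 ± 0.07. The deprived KO cocultures lay below every deprived KO monoculture in all 3 genes. The members not called were Prim2, Pold1 and Lig1. Over the 15 genes given in every library the adjusted p was 1.46e-15 to 0.0167. The largest belonged to Gmnn (-0.33 ± 0.12), whose call was lost without deprived KO monoculture replicate 3, at -0.22 with an adjusted p of 0.12, or deprived KO coculture replicate 2, at -0.25 with an adjusted p of 0.093.

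In deprived WT cells 29 of 49 members were higher and 1 lower in cocultures by the call than in monocultures, where 14.9% of all genes rose and 13.1% fell (28.1% called in all), and the member median was 0.32 against -0.01 for all genes. All 6 clamp and loader genes were among them, with 3 of the 4 licensing genes, 3 of the 6 ring genes and 4 of the 7 chromatin genes. Pclaf had 2.03, 2.16 and 1.89 FPKM in deprived WT cocultures, against 0.415, 0.532 and 0.746 FPKM in deprived WT monocultures, a log2 change of 0.96 ± 0.11. Ccne2 had 2.27, 2.49 and 2.76 FPKM in deprived WT cocultures, against 0.926, 0.596 and 1.38 FPKM in deprived WT monocultures, a log2 change of 0.85 ± 0.14. Mcm5 had 4.94, 4.71 and 5.93 FPKM in deprived WT cocultures, against 2.94, 2.37 and 2.21 FPKM in deprived WT monocultures, a log2 change of 0.82 ± 0.09. The cocultures were above the monocultures in every library of these 3 genes. Mcm2 alone was called lower, with 16.7, 15.99 and 15.3 FPKM in deprived WT cocultures, against 18.8, 19.1 and 18.2 FPKM in deprived WT monocultures and a change of -0.22 ± 0.05. The adjusted p of these 4 genes was 3.90e-07 to 0.00299.

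In replete medium fewer of the genes were called with coculture. In replete KO cells 12 of 49 members were higher and 5 lower in cocultures by the call, where 20.1% of all genes rose and 19.9% fell, so that the members were called no more often than all genes. The number lower was 1 without replete KO coculture replicate 1 or 2, 2 without replete KO monoculture replicate 1, and 3 without any single one of deprived KO monoculture replicate 2, replete KO coculture replicate 3, deprived WT monoculture replicate 3, replete WT monoculture replicate 1 or 2, deprived WT coculture replicate 1 or 3, or replete WT coculture replicate 3. The largest rises were those of Lig1 (0.68), E2f1 (0.55) and Mcm6 (0.55), and the largest falls those of Mcm2 (-0.45), Hells (-0.34) and Tipin (-0.26). Lig1 had 6.56, 7.04 and 6.14 FPKM in replete KO cocultures, against 3.44, 3.75 and 4.03 FPKM in replete KO monocultures, and the libraries were separate. Tipin, a fork protection protein, had 7.95, 7.66 and 7.95 FPKM in replete KO cocultures, against 11.6, 9.38 and 8.15 FPKM in replete KO monocultures, and Hells had 2.18, 2.14 and 2.41 FPKM in replete KO cocultures, against 4.18, 2.53 and 2.76 FPKM in replete KO monocultures. Without replete KO monoculture replicate 1, the highest library in both, the Tipin and Hells calls were lost, at -0.14 with an adjusted p of 0.28 and -0.17 with an adjusted p of 0.17, and 11 genes were called higher and 2 lower. The Hells call was also lost without replete KO coculture replicate 1 or 2, and the Tipin call was lost in 16 of the 24 fits that each left out 1 library. The adjusted p of the genes named for this comparison was 8.63e-07 to 0.0471. In replete WT cells 6 of 49 members were higher and 2 lower in cocultures by the call, where 16.3% of all genes rose and 14.9% fell (31.2% called in all). The changes that led were 0.64 for Ccne2, 0.48 for Mcm6 and 0.33 for Mcm5 upwards, and -0.43 for Pold2 and -0.36 for Mcm2 downwards. Pold2 had 19.4, 19.0 and 20.3 FPKM in replete WT cocultures, against 28.2, 25.9 and 26.3 FPKM in replete WT monocultures, without overlap, and its call was lost without replete WT monoculture replicate 1, at -0.40 with an adjusted p of 0.055. The adjusted p of the genes named was 1.70e-05 to 0.0143. Limma voom on reads, which scales by library total and moved the median of all genes to -0.11 in this comparison, called 6 higher and 8 lower. Mcm2 was thus called lower and Mcm5 and Mcm6 higher with coculture in both replete genotypes.

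Deprived KO cocultures were also set against replete KO monocultures, so that hepatocytes stood against added serine and glycine. By the call 25 of 49 members were higher and 2 lower in deprived KO cocultures, where 22.9% of all genes rose and 21.6% fell (44.5% called in all), with a member median of 0.29 against -0.02 for all genes. Mcm5 (1.26 ± 0.09), Pclaf (0.98 ± 0.11) and Cdc45 (0.83 ± 0.11) rose most. Chaf1b had 2.25, 2.38 and 1.97 FPKM in deprived KO cocultures, against 3.05, 2.44 and 2.99 FPKM in replete KO monocultures, a log2 change of -0.26 ± 0.08, without overlap, and its call was lost without deprived KO coculture replicate 3, at -0.20 with an adjusted p of 0.059. The other gene called lower, Pold2, had 15.8, 11.96 and 12.4 FPKM in deprived KO cocultures, against 15.5, 23.2 and 26.1 FPKM in replete KO monocultures, which overlapped. The adjusted p of the genes with a change given here was 4.73e-10 to 0.00999. A fit of only these 6 libraries called 16. In that limma fit 21 of 49 members (42.9%) and 35.7% of all genes had an unadjusted p under 0.05.

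In deprived monocultures KO and WT differed in most of the genes. There 46 of 49 members were higher and 0 lower in KO cells by the call, where 37.4% of all genes rose and 36.3% fell (73.6% called in all), with a member median of 1.19 against 0.00 for all genes. The deprived KO monocultures are also part of the withdrawal comparison in KO monocultures, so that the calls of the 2 comparisons are not separate evidence. All 4 tested licensing genes, 6 of 6 ring genes, 6 of 6 helicase activators, 6 of 6 clamp and loader genes, 8 of 10 polymerase and single-strand binding genes, 7 of 7 chromatin genes, 3 of 3 S phase entry genes and 5 of 5 checkpoint genes were called higher. The largest log2 changes were 3.63 ± 0.11 for Pclaf, 2.64 ± 0.09 for Mcm5 and 2.54 ± 0.09 for Cdc6. Pclaf had 20.5, 16.9 and 17.8 FPKM in deprived KO monocultures, against 0.415, 0.532 and 0.746 FPKM in deprived WT monocultures, and the 2 genotypes were far apart. The 3 genes not called were Pold1 (an adjusted p of 0.289), Pold2 (0.516) and Lig1 (0.629). Lig1 had 6.27, 6.50 and 5.95 FPKM in deprived KO monocultures, against 6.17, 5.82 and 6.07 FPKM in deprived WT monocultures, which overlapped. Mcm7 (0.23 ± 0.06) lost its call under quantile normalization, where the change was -0.02. Over the 15 genes given in every library the adjusted p was 2.17e-16 to 0.0031.

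In the other conditions members were called in both directions. In replete monocultures 8 of 49 members were higher and 15 lower in KO by the call, where 21.5% of all genes rose and 21.1% fell (42.7% called in all). In replete cocultures 11 were called higher and 11 lower, where 21.8% of all genes (2635 of 12061) rose and 2656 of 12061 fell (43.9% called in all), so that the members were called about as often as all genes. The number higher was 7 without replete KO coculture replicate 2. In deprived cocultures 10 were called higher and 15 lower, where 26.3% of all genes rose and 27.4% fell (53.6% called in all). Each of the 3 member medians was small, at -0.13, 0.01 and -0.06. A fit of only the libraries compared called 15 genes in replete monocultures, against 23. In that limma fit 24 of 49 members (49.0%) and 39.7% of all genes had an unadjusted p under 0.05.

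Even so, some genes kept a direction. Asf1b, Ccne1, E2f1, Mcm10, Mcm3, Mcm5, Pclaf and Tipin were called lower in KO in all 3 of these conditions and higher in KO in deprived monocultures. The share of all genes with the same set of calls was not determined. Mcm10 passed the filter only through the deprived KO monocultures, so its higher level there is not independent of the filter. Mcm5 had 0.89, 0.896 and 0.768 FPKM in replete KO monocultures, against 2.31, 2.33 and 2.02 FPKM in replete WT monocultures, a log2 change of -0.80 ± 0.09. E2f1 had 3.42, 4.79 and 4.13 FPKM in replete KO monocultures, against 8.77, 8.39 and 8.18 FPKM in replete WT monocultures, a log2 change of -0.89 ± 0.10. Ccne1 had 0.414, 0.309 and 0.474 FPKM in replete KO monocultures, against 1.196, 2.11 and 1.53 FPKM in replete WT monocultures, a log2 change of -0.89 ± 0.15. KO libraries lay below WT libraries in all 3, with an adjusted p of 4.00e-07 to 0.000107. In replete cocultures the changes of the named genes were -0.75 ± 0.11 for Pclaf, -0.60 ± 0.09 for Mcm5 and -0.54 ± 0.15 for Ccne1, with E2f1 at -0.26 ± 0.10, a call that was lost without replete KO coculture replicate 2 or 3 or replete WT coculture replicate 1 or 3, at -0.17 with an adjusted p of 0.21 in the case of WT replicate 1. In deprived cocultures E2f1 had 5.90, 5.13 and 4.71 FPKM in deprived KO cocultures, against 12.2, 11.1 and 12.1 FPKM in deprived WT cocultures, a log2 change of -1.04 ± 0.10. Ccne1 had 0.454, 0.393 and 0.399 FPKM in deprived KO cocultures, against 1.65, 1.40 and 1.43 FPKM in deprived WT cocultures, a log2 change of -0.82 ± 0.15. Pold2 had 15.8, 11.96 and 12.4 FPKM in deprived KO cocultures, against 23.8, 22.01 and 21.4 FPKM in deprived WT cocultures, a log2 change of -0.71 ± 0.13. Deprived KO cocultures were below deprived WT cocultures in every library of these genes, with an adjusted p of 3.37e-08 to 0.00017.

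Dnmt1, Rfc2, Rfc3, Rfc4 and Slbp were called higher in KO in all 4 conditions. How large a share of all genes was called higher in all 4 was not determined. Slbp had 11.5, 8.07 and 7.74 FPKM in replete KO monocultures, against 4.41, 4.47 and 4.56 FPKM in replete WT monocultures, a log2 change of 0.86 ± 0.12. It had 7.73, 7.01 and 7.70 FPKM in replete KO cocultures, against 4.73, 5.36 and 3.73 FPKM in replete WT cocultures, a log2 change of 0.61 ± 0.12. It had 7.42, 10.03 and 9.20 FPKM in deprived KO cocultures, against 4.86, 4.63 and 4.94 FPKM in deprived WT cocultures, a log2 change of 0.76 ± 0.12. In each condition all KO libraries were above all WT libraries, and the adjusted p was 7.22e-06, 0.000318 and 2.13e-05 in the same order. Rfc3 had 5.70, 4.89 and 4.99 FPKM in replete KO cocultures, against 2.98, 2.76 and 2.91 FPKM in replete WT cocultures, a log2 change of 0.67 ± 0.06. Rfc5 had 4.39, 3.98 and 3.84 FPKM in replete KO cocultures, against 2.49, 2.69 and 2.53 FPKM in replete WT cocultures, a log2 change of 0.50 ± 0.09. Rfc4 had 14.3, 14.96 and 15.3 FPKM in deprived KO cocultures, against 8.48, 8.92 and 8.82 FPKM in deprived WT cocultures, a log2 change of 0.70 ± 0.08. These loader subunits were separate between genotypes, with an adjusted p of 1.65e-08 to 0.00013 in replete and 5.13e-07 in deprived cocultures. Rfc4 and Rfc5 overlap the expressed genes Eif4a2 and Wsb2 on the other strand. Ccne2 (0.55 ± 0.14) and Pole2 (0.48 ± 0.14) were higher in KO in replete monocultures, with 2.40, 1.44 and 1.67 FPKM in replete KO monocultures, against 0.989, 0.92 and 1.13 FPKM in replete WT monocultures for Pole2, whose call was lost without replete KO monoculture replicate 1, at 0.34 with an adjusted p of 0.06. Prim2 had 4.70, 5.83 and 6.10 FPKM in deprived KO cocultures, against 3.38, 3.57 and 4.23 FPKM in deprived WT cocultures, a log2 change of 0.47 ± 0.13, also without overlap.

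**Figure D4:**
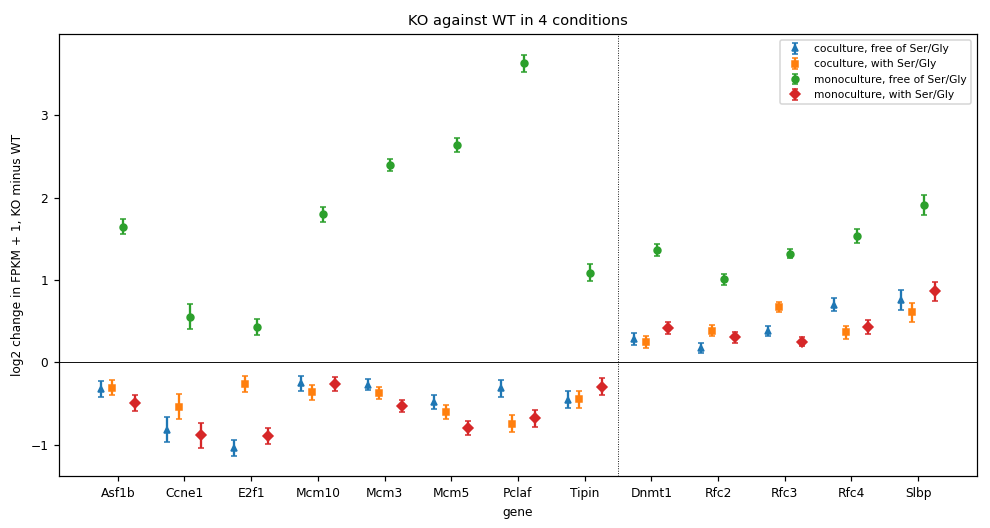
Difference between KO and WT (vertical axis, log2 difference in FPKM + 1, KO minus WT, with SE bars) for 13 genes (horizontal axis) in 4 conditions, 1 colour and marker each. The 8 genes left of the dotted line were lower in KO in 3 conditions and higher in deprived monocultures, and the 5 right of it were higher in KO in all 4.

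Other genes of replication and of the cell cycle were followed as lists. Their counts for deprived against replete KO monocultures stand beside 36.2% of all genes called higher and 34.5% lower. Passage of the filter only through the deprived KO monocultures was not checked for these lists, so their counts may be biased towards that group. Of 41 tested replication genes outside the 50, 27 were called higher and 2 lower in deprived than in replete KO monocultures (median 0.53), with 2.25 ± 0.09 for Orc5, an origin recognition subunit, 1.87 ± 0.10 for Mcm8, 1.72 ± 0.08 for Pole3 and -2.25 ± 0.14 for Pold4, the small subunit of polymerase delta, which fell. Of 11 genes for deoxynucleotide supply, 9 were called higher and 1 lower (median 0.78). Rrm2, the small subunit of ribonucleotide reductase, had 56.9, 50.4 and 48.3 FPKM in deprived KO monocultures, against 1.99, 1.28 and 1.19 FPKM in replete KO monocultures, a log2 change of 4.42 ± 0.12, and the libraries were far apart. Dck, deoxycytidine kinase, rose by 1.31, and Dctd, dCMP deaminase, fell, at -1.38. Of 26 E2F and G1 regulators, 14 were called higher and 4 lower (median 0.55), led by Ccna2, the cyclin of S phase and G2 (2.95), Rbl1 (2.19), Mybl2 (2.09) and E2f2 (2.05). Of 6 tested CDK inhibitors, 3 were called higher and 2 lower (median 0.48), a split near that of all genes, with Cdkn2d at 1.17, Cdkn1a at 1.12, Cdkn2c at 1.11 and Cdkn2a at -0.89. Cdkn1a encodes p21, an inhibitor of cell cycle kinases and of Pcna, and it rose beside the replication genes, to 38.5, 49.0 and 47.1 FPKM in deprived KO monocultures, against 15.6, 21.95 and 23.4 FPKM in replete KO monocultures.

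Genes of mitosis were called higher on withdrawal in KO cells in both cultures, and some of them in WT cocultures. As for the other lists, genes that passed the filter only through the deprived KO monocultures were not counted, so these counts may be biased. In KO monocultures 29 of 30 tested mitosis genes were called higher on withdrawal and 0 lower, with a median of 1.43 (36.2% of all genes higher), and Top2a (topoisomerase II alpha, 3.40), Mki67 (the Ki-67 antigen, 2.61), Kif11 (2.16) and Ccnb1 (cyclin B1, 2.13) led. In KO cocultures 30 of 30 mitosis genes were called higher on withdrawal, with a median of 0.74, beside 20 of 49 replication genes with a median of 0.21 and 15.5% of all genes. In WT cocultures 8 of 30 were called higher and 0 lower, with a median of 0.36, beside 0.439% of all genes called higher. Ccnb1 had 3.32, 3.18 and 3.54 FPKM in deprived KO cocultures, against 0.594, 0.308 and 0.686 FPKM in replete KO cocultures, a log2 change of 1.51 ± 0.11, and Kif11 (1.36), Tpx2 (1.30) and Ect2 (1.27) followed. The mean log2(FPKM + 1) of 32 mitosis genes was 1.92 in deprived and 1.15 in replete KO cocultures, 2.38 in deprived and 0.97 in replete KO monocultures, 1.68 in deprived and 1.33 in replete WT cocultures, and 1.19 in deprived and 1.202 in replete WT monocultures. In deprived KO cells 19 of 30 mitosis genes were lower and 3 higher with coculture by the call (median -0.43), beside 46 of 49 replication genes lower and 36.3% of all genes lower and 35.0% higher. The difference in the response of the 2 lists was not tested.

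**Figure D5:**
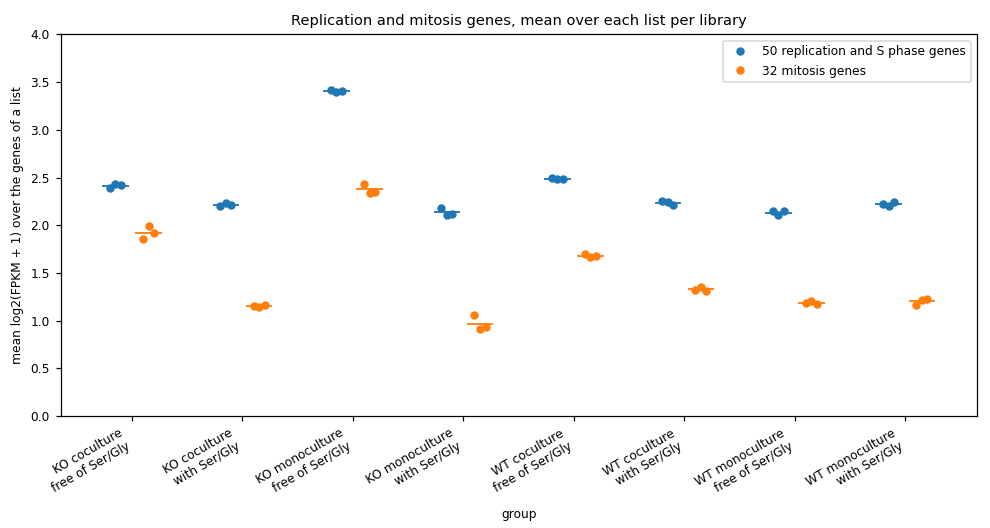
Mean log2(FPKM + 1) over the 50 replication genes and over 32 mitosis genes (vertical axis) in each of 24 libraries by group (horizontal axis), with a line at each group mean. Both lists are highest in deprived KO monocultures (3.41 and 2.38), and in deprived KO cocultures the mitosis list stands at 1.92 while the replication list stands at 2.41, close to the other groups.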

How the data were processed

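Total RNA of 24 libraries in 8 groups of 3 was sequenced. The deposited table holds FPKM per gene for 54532 genes, and the submitters' processing notes name HISAT2, an aligner, and the mouse build GRCm38 (mm10). The sources used here do not give the tool version, the counting program or its settings for strand and multi-mapping reads. FPKM times gene length gave whole reads within 0.01 for 100% of values, so that reads per library could be recovered (15740081 to 23479425). The precision of each value is limited by this depth and by 3 libraries a group.

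FPKM as deposited by the authors was taken to log2(FPKM + 1), and genes with at least 1 FPKM in at least 3 libraries were kept (12061). All 24 libraries entered 1 model with 8 group means (limma 3.58.1 in R 4.3.3, moderated test with an intensity trend, 16 residual degrees of freedom, two-sided), with Benjamini-Hochberg adjustment over the genes kept and a call at an adjusted p under 0.05. The code was tested on simulated data. For deprived against replete KO monocultures the model on FPKM called 8534 genes, and limma voom on the recovered reads called 8631. There were 13 pair comparisons and 5 interactions. Alternatives were a pseudocount of 0.1, no filter, quantile normalization, limma voom on the recovered reads, only the groups compared, the replicate number as a block, and leaving out each library in turn. Median ratio scaling and a filter without the deprived KO monocultures were chosen after seeing the data.

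The members, the other gene lists and the motifs were chosen with earlier results of these data known. Values in every library are given for 15 genes (Mcm2 to Mcm7, Cdc6, Cdt1, Gmnn, Cdc45, Pcna, E2f1, Ccne1, Ccne2 and Chek1), and each comparison names up to 3 rises and 3 falls, the largest among called genes whose groups did not overlap. Other lists give up to 4 examples, those with the largest change among the called genes. For the deoxynucleotide list 1 of them is not reported here. Orc1, Mcm10, Gins3, Clspn, Cdkn1a, the members that missed a call and the genes at the ends of a role's range were named after their values were seen. Deviations of same-numbered replicates from their group means correlated at -0.63 to 0.40 over 39 pairs in 13 comparisons. All 3 pairs were over 0.1 only for deprived against replete KO monocultures (0.40, 0.28 and 0.11). There the samples may pair by number, a hint from the data and not from the labels. The main model held no pairing term, so the SEs and adjusted p given for that comparison are unpaired. In the other 12 comparisons the numbers were not taken as a sign of pairs.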

Additional observations from a re-analysis of the deposited data

Results flagged for a closer look

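The response to withdrawal differed between groups by the interaction test (limma, Benjamini-Hochberg) for many of the 49 tested genes. Between KO and WT it differed for 44 genes in monoculture, where 61.2% of all genes were called, and for 5 in coculture, where 14.4% were, a larger share than among the members. Between coculture and monoculture it differed for 45 genes in KO (57.7% of all genes) and 11 in WT (1.67%). The difference between genotypes in that culture effect was called for 45 genes (46.5% of all genes). The counts of 44, 45 and 45 all rest on the same deprived KO monocultures and are not separate evidence. Gene by gene, the change in KO monocultures minus that in WT monocultures is given for the 15 genes described in every library, all of which were called, among 44 called in all. In log2 units it was 3.44 for Mcm5, 2.93 for Mcm3, 1.41 for Mcm6, 1.02 for Mcm4, 0.95 for Mcm2 and 0.41 for Mcm7 in the ring. It was 3.003 for Cdc6, 1.75 for Cdt1 and 1.30 for Gmnn among licensing genes, 2.97 for Cdc45 and 1.16 for Pcna. It was 1.66 for Ccne2, 1.44 for Ccne1, 1.32 for E2f1 and 1.09 for Chek1.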

How the results depend on the processing

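Of 364 called member results, 363 kept their direction and 289 kept the call under all of the 32 alternatives that tested them. They cover the 13 pair comparisons and the interaction of genotype and withdrawal in monoculture. Calls of the other interactions were not followed gene by gene. All 45 calls for withdrawal in KO monocultures and all 44 for its difference from WT were kept wherever tested. So were 44 of 46 for KO against WT in deprived monocultures and 42 of 46 for coculture in deprived KO cells. Clspn, Gins3 and Mcm10 were not tested with the filter that leaves out the deprived KO monocultures. Mcm7 turned to -0.0181 under quantile normalization in deprived KO against WT monocultures. Uncalled Lig1 turned to -0.0232 by voom there. In withdrawal in KO monocultures uncalled Pold1 turned to 0.0006 with a pseudocount of 0.1 and ranged over -0.1663 to 0.1147 without 1 library, and uncalled Pold2 ranged over -0.0411 (without replete KO monoculture replicate 1) to 0.3173. The fit of only the groups compared gave 15 calls for KO against WT in replete monocultures and 0 for withdrawal in WT cocultures. It gave 9 for coculture in replete KO cells and 16 for deprived KO cocultures against replete KO monocultures. For coculture in replete KO cells, 28.6% of members and 37.1% of all genes had an unadjusted p under 0.05 in that limma fit. For the 15, 9 and 16 calls the shares of all genes called are not given here. Without the filter coculture in replete KO cells gave 11. Voom gave 14 for coculture in replete WT cells and 8 for the interaction of genotype and withdrawal in coculture, and quantile normalization gave 1 for withdrawal in WT monocultures. Without 1 library, counts ranged over 0 to 1 for withdrawal in WT monocultures, 5 to 14 in WT cocultures, 3 to 12 for its difference between genotypes in coculture and 4 to 14 for its difference between cultures in WT. The cause was not tested. Voom with library totals moved the median of all genes by -0.11 (replete) and -0.10 (deprived) for coculture in WT. With the replicate block 45 members were called for withdrawal in KO monocultures, and no call changed there. The pairing by number there is a hint from the data and not from the labels. The block is 1 replicate term over all 24 libraries, so it does not test that pairing. It gave 23 calls for withdrawal in KO cocultures, 9 in WT cocultures and 0 in WT monocultures. Genes under 1 FPKM rest on few reads, which limits their changes.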
